A study of Saccharomyces cerevisiae with 44 samples.

Results

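The mitochondrial ribosomal protein genes of budding yeast were followed through the yeast metabolic cycle, with the proteins of the large subunit set beside those of the small subunit. Members were taken by their standard names: every MRPL gene together with MRP7, MRP20 and MRP49 for the large subunit, and every MRPS and RSM gene together with the remaining numbered MRP genes for the small subunit. This gave 65 genes, 37 of the large and 28 of the small subunit, out of 6692 yeast genes in the table. All 65 passed the filter on low values, as did 5820 genes in all. They lie on 14 chromosomes, and 1 of them, MRPL44, has an intron.

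The mitochondrial ribosome translates the few messages of the mitochondrial genome, nearly all of which encode subunits of the respiratory chain and the ATP synthase. Its small subunit binds the message and decodes it, and its large subunit joins the amino acids and passes the new chain into the inner membrane through an exit tunnel. Apart from the small subunit protein Var1, its proteins are encoded in the nucleus, translated in the cytosol and imported, so both subunits have to be supplied by messages from many scattered genes. Many of these messages are known targets of Puf3, an RNA-binding protein that recognises a short run of letters after the stop codon, TGTANATA in DNA spelling with U for T in the message, and affects the decay, translation and localisation of the messages it binds.

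All samples were of strain CEN.PK122, kept in a fermentor on minimal medium with 1% glucose at a constant feed, where respiration goes up and down in step across the culture. Fast cycling (dilution of 0.12 to 0.13 per h) was sampled every 13 min in 20 libraries, and slow cycling (dilution of 0.045 to 0.05 per h) every 36 min in 24 libraries. Each series spans 2 cycles, so that a cycle has 10 positions if fast and 12 if slow, counted from the first sample. The starts of both series are not aligned in the labels, so a position of one has no counterpart in the other. No repeat cultures are named: a p-value here reflects scatter within 1 culture per condition, and the 2 cycles are the repeats behind each SD.

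Fast libraries held 7.6 to 19.67 M reads and slow ones 6.45 to 13.11 M, and the member with the fewest reads in any library, MRPL37, still had 98. Levels are in RPKM, reads scaled to gene length and library depth, which allows genes to be compared per length. RPKM is a share of the library, so a burst of other messages lowers it. The external ERCC control RNAs took 0.433% to 1.60% of gene reads in the fast libraries, and 0.679% to 1.27% in the slow libraries. MRPL19 overlaps another annotated gene on the same strand by 113 bases, so its value may include reads of that gene. Genes on the opposite strand overlap MRP4, MRPL38, MRPL51, MRPL9 and RSM7, but reads were counted on the sense strand. A change in RPKM in a whole culture does not tell apart a change in the number of cells carrying a message from a change in its amount per cell.

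The letters TGTANATA, searched on the sense strand only, were found within 300 bases after the stop codon in 64 of the 65 genes. All 37 large subunit genes and 27 of the 28 small subunit genes had them, against 960 (16.5%) of the 5807 tested genes with a full window. RSM22, a methyltransferase-like protein of the small subunit, was the member without them. The first site began 8 to 139 bases after the stop codon, with a median of 51, and 15 members had more than 1 site. The sites below are the first after the stop codon in 5 large and 5 small subunit genes to which the results return, each with 11 bases on either side, read 5′ to 3′ on the strand of the gene from the RefSeq genome R64, which has the coordinates of the deposited table. Capitals mark the 8 letters of the match. MRPL7, MRPL33 and MRPS12 have a second site, which is not shown.

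MRPL4: accctctctccTGTAAATAtatatatatat
MRPL7: cccattcgtcaTGTAAATAtataaactgta
MRPL10: atattctcactTGTACATAccttaagatat
MRPL33: tgacttatataTGTATATAgtattattttt
MRP20: cccctcacactTGTATATAcggagcaaact
RSM26: atcttatatacTGTAAATAgttttatttta
MRPS9: ttcgttattccTGTAAATAaagttatatgt
MRPS12: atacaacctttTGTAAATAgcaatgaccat
RSM7: gtaaacttgccTGTACATAaacacatttat
MRP4: taacctaaactTGTACATAtgcccatatat

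Of these first sites, that of MRPL4 lies at chrXII:1015467-1015496 (plus strand), that of MRPL7 at chrIV:937564-937593 (plus) and that of MRPL10 at chrXIV:103075-103104 (minus). The first MRPL33 site is at chrXIII:842249-842278 (plus) and the MRP20 site at chrIV:1278499-1278528 (plus). Of the small subunit, the RSM26 site is at chrX:619111-619140 (plus), the MRPS9 site at chrII:536224-536253 (plus) and the first MRPS12 site at chrXIV:694269-694298 (minus). The RSM7 site is at chrX:638192-638221 (minus) and the MRP4 site at chrVIII:100429-100458 (plus). All begin after the stop codon of their gene, MRPL4 closest to it among the large subunit genes shown, at 28 bases, and MRPS9 farthest, at 139 bases.

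The fifth letter of the match varied among the members. Of their 81 sites, 36 read TGTAAATA, 25 TGTATATA, 18 TGTACATA and 2 TGTAGATA. The 36 members with TGTAAATA had a median fold between the highest and the lowest position of the cycle of 3.58 in fast and 4.38 in the slow condition. The 28 members with other spellings only had medians of 3.48 and 4.36. The medians of the differently spelled groups thus lay close together. In the promoters of the members (250 bases before to 50 after the start codon, both strands) 3 known activator and repressor words were no more frequent than elsewhere. CCAAT, the core of the Hap activator complex's site, was in 27 of 65 (41.5%) against 44.2% of all tested genes, GATGAG in 16.9% against 19.8%, and AAAAATTTT in 6.15% against 7.11%. These are matches of letters, not sites shown to be bound.

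Nearly every member cycled in both conditions, and the subunits did so alike. In the fast condition all 65 genes passed the rank test for cycling (JTK_Cycle, adjusted p under 0.05 over all tested genes), where 74.3% of all tested genes passed. In the slow condition 64 passed, 36 of the large and 28 of the small subunit, against 55.1% of all tested genes. The exception was MRP20, a large subunit protein at the mouth of the exit tunnel, with an adjusted p of 0.055 in that test. Harmonic regression, which tests for a cosine, called all 65 in both conditions, against 81.8% of all tested genes for fast and 56.9% for slow cycling. The limma F test across positions called 65 and 64, against 84.1% and 85.2%. With ERCC scaling the rank test called 60 members in fast cycling (32 large, 28 small) and 64 in slow cycling. The share of all tested genes in that scaling is not given here.

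The genes were highest in 1 short phase of each cycle. In the fast cycle the median large subunit gene stood at 214 RPKM at position 1 and 201 at position 2, dropped to 69.0 at position 7, and was back at 164 at position 9 and 222 at position 10. The median small subunit gene ran alongside, at 214 and 200, then 73.7, then 162 and 227 RPKM. Both subunits were thus high at 4 of 10 positions and low at the rest. In the slow cycle the median large subunit gene was at 297 RPKM at position 1, 168.9 at position 2 and 118 at position 3, and between 66.5 and 111 at all other positions. For the small subunit the values were 291, 162 and 113 RPKM, and 67.5 to 110 elsewhere. A high phase that took 4 of 10 positions in the fast cycle took 2 of 12 in the slow.

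**Figure D1:**
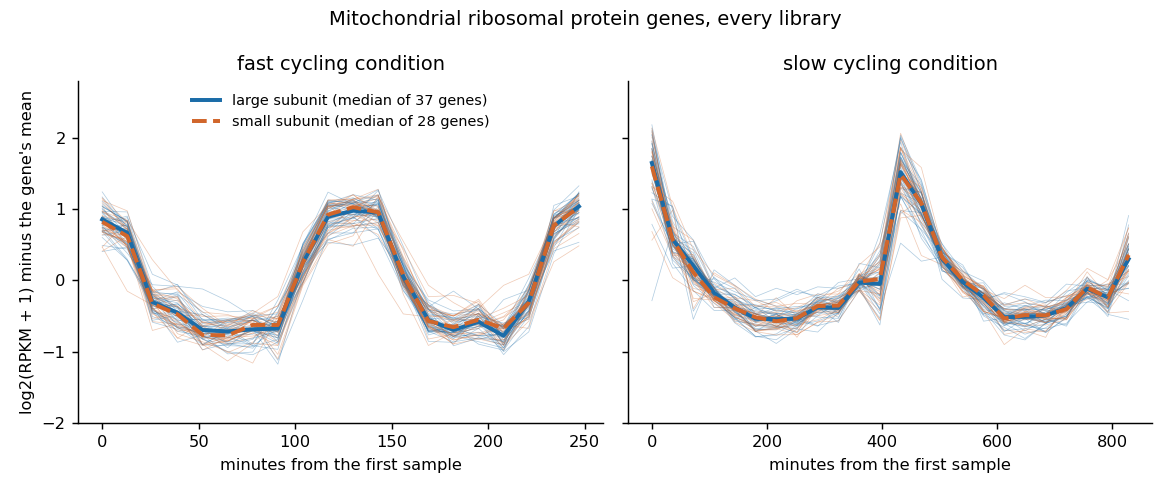
Level of each mitochondrial ribosomal protein gene in every library, as log2(RPKM + 1) minus the gene's own mean in that condition (y axis), against minutes from the first sample (x axis), for the 20 fast (left) and 24 slow libraries (right). Thin lines are single genes, thick lines the medians of the 37 large and 28 small subunit genes, which lie almost on top of each other and are high around positions 9 to 2 of the fast and at positions 1 and 2 of the slow cycle.

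The position of the highest value varied little between genes. In the fast condition 38 members were highest at position 10 (21 large, 17 small), 15 at position 1 and 12 at position 2 (7 large, 5 small). Of 5820 tested genes 774, 811 and 423 were highest at these positions. In the slow condition 62 members were highest at position 1 (36 large, 26 small), and MRP20, RSM7 and MRPS12 at position 2. Of 5820 tested genes 1367 and 349 were highest there. Of the genes of the cytosolic ribosome 135 of 138 were highest at fast position 8, against 1475 of 5820 tested genes. At slow position 12 it was 137 of 138, against 2075 of 5820. These are the positions from which the mitochondrial set made its steepest rise in each condition. The courses repeated between the 2 cycles, with a median correlation over positions of 0.95 in the fast (n = 10 positions) and 0.94 in the slow condition (n = 12). The medians of all tested genes were 0.83 and 0.87.

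The fast rise was steepest at 1 step. From position 8 to 9, 36 of 37 large and all 28 small subunit genes rose (limma, adjusted p under 0.05 over all tested genes), where 15.7% of all tested genes rose. The median change was 0.95 on the log2 scale for the large and 0.97 for the small subunit, against 0.10 for all tested genes. The next step, from 9 to 10, had medians of 0.46 and 0.47, and limma called 0 members and 0 of 5820 tested genes there. MRPL33 was the gene that did not pass limma from 8 to 9, with a change of 0.72 ± 0.25 (SE) and an adjusted p of 0.0535. One step earlier, from 7 to 8, only MRPL3, MRPL9, MRPL15 and RSM26 rose, against 11% of all tested genes and 76.1% of the 138 cytosolic ribosomal protein genes. Mrpl3 and Mrpl15 share a ribonuclease-like fold, and Rsm26 has the fold of superoxide dismutases.

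The fall in the fast cycle was also steepest at 1 step. Smaller falls followed it, with member medians of -0.41 from 3 to 4 and -0.19 from 4 to 5 (log2). At both of these later steps limma called 0 of 5820 tested genes. From position 2 to 3, 29 of 37 large and 22 of 28 small subunit genes fell, where 4.79% of all tested genes fell, with a median of -0.91 and -0.90 on the log2 scale. At the step before it, from 1 to 2, limma called a fall for 36.8% of all tested genes and 89 of 138 cytosolic ribosomal protein genes, but of the members for RSM22 alone, at -0.65 ± 0.17 (SE) with an adjusted p of 0.0109. With libraries scaled to the ERCC control RNAs, whose share varied between fast libraries, all 65 members still moved in the same directions from 8 to 9 and from 2 to 3. Limma then called no member. It also called a rise for 0 of 5820 tested genes from 8 to 9 and a fall for 0 from 2 to 3. In that scaling 13 members reached an unadjusted p under 0.05 in limma for the rise, as did 165 of all tested genes. For the fall it was 0 members and 44 of all tested genes.

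In the slow cycle the rise came from position 12 to 1 and was larger per step. A slow step lasts longer than a fast step, so this does not make the slow rise steeper in time. The rise from 12 to 1 took in 36 of 37 large and 27 of 28 small subunit genes, where 36.8% of all tested genes rose. The median change was 1.40 on the log2 scale for the large and 1.43 for the small subunit. The cytosolic ribosomal protein genes went the other way at this step, with 136 of 138 falling. MRP20 (0.27 ± 0.30, SE) and RSM22 (0.27 ± 0.17) were the members that did not pass, with adjusted p of 0.453 and 0.158. With ERCC scaling 55 members rose, and 2 of the 65 had a change below 0. In that scaling 819 of 5820 tested genes rose and 2617 fell. RSM22 had begun to climb a step earlier, by 0.49 ± 0.17 with an adjusted p of 0.0166, at the step from 11 to 12 where 9 genes of each subunit rose, against 33.9% of all tested genes.

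The slow fall passed limma at 2 steps. Members kept falling after them, with medians of -0.34, -0.20 and -0.21 (log2) from 3 to 4, 4 to 5 and 5 to 6. Limma called 0 members at these later steps, against 16, 39 and 36 falling among all tested genes. From position 1 to 2, 34 large and 25 small subunit genes fell, where 47.9% of all tested genes fell. From 2 to 3, 23 large and 21 small subunit genes fell, where 4.19% of all tested genes fell and 121 of 138 cytosolic ribosomal protein genes rose. Scaling by median-of-ratios size factors gave 38 falling members at the first of these steps, with 1 large subunit gene rising, and 60 at the second. Of 5820 tested genes 1412 fell and 1101 rose at the first step in that scaling, and 528 fell at the second. ERCC scaling gave 50 and 6 falling members, where 1983 and 51 of all tested genes fell. At the second step all 65 changes were below 0 with size factors, as were 64 of 65 in the deposited scaling and with ERCC controls.

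**Figure D2:**
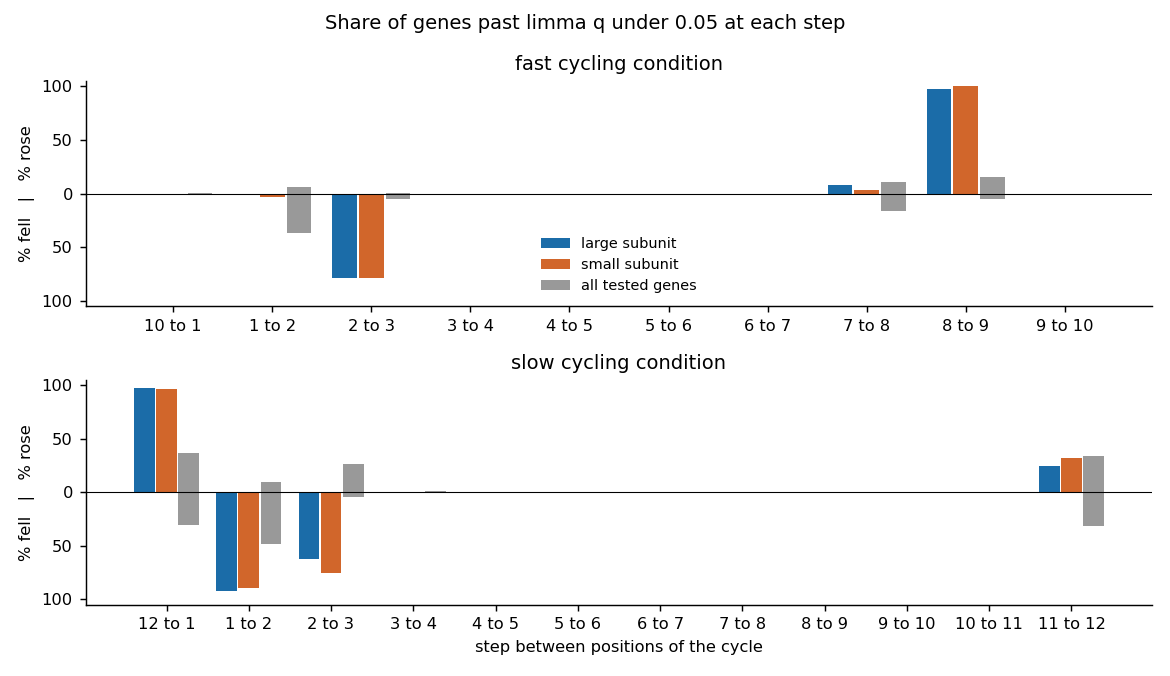
Share of genes that rose (up) or fell (down) at each step between neighbouring positions of the fast (top) and slow cycle (bottom), by limma with an adjusted p under 0.05, in percent, for large subunit genes, small subunit genes and all tested genes. The bars of the subunits are near 100% at the rise from 8 to 9 in the fast and from 12 to 1 in the slow cycle, and the widest gap between them is at the slow fall from 2 to 3, with 23 of 37 large and 21 of 28 small subunit genes.

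The balance between the subunits shifted little. The mean RPKM per large subunit gene divided by that per small subunit gene was 0.919 ± 0.025 in the fast (SD, n = 20 libraries) and 0.940 ± 0.018 in the slow condition (SD, n = 24). In the fast libraries its lowest value was 0.862 (time point 17), its median 0.928 and its highest 0.946 (time point 1). In the slow libraries it ran from 0.9005 (time point 14) over a median of 0.944 to 0.969 (time point 3). By this mean the large subunit was below the small per gene in every library of both conditions, but other summaries did not keep that order. The difference of the subunits' median log2 levels was above 0 in 21 of 44 libraries, from -0.12 to 0.15, and that of their mean log2 levels in 3. Over the same libraries the summed RPKM of the large subunit genes moved from 2604 to 9117 in fast and from 2699 to 11794 in slow cycling. Counted by reads, the 37 large subunit genes took 0.203% to 0.723% of gene reads in fast and 0.204% to 0.925% in the slow libraries, and the 28 small subunit genes 0.197% to 0.646% and 0.180% to 0.812%.

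**Figure D3:**
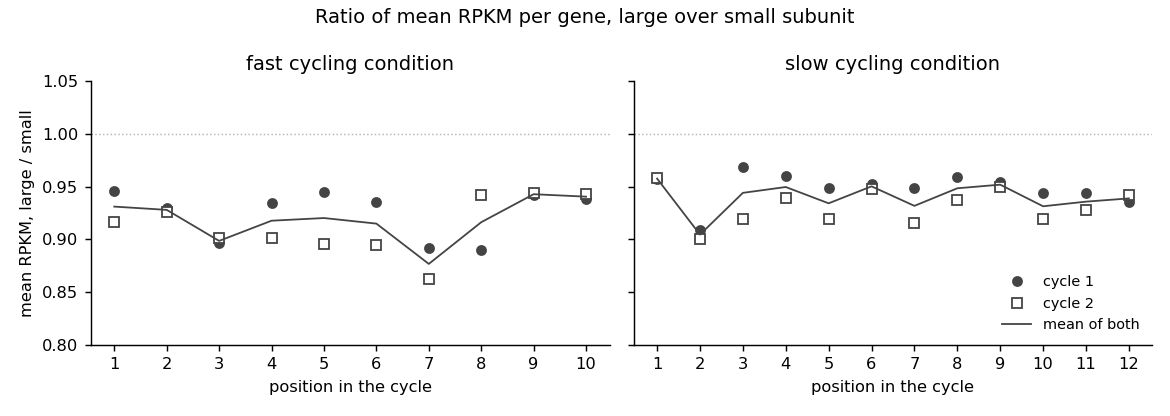
Mean RPKM per large subunit gene divided by mean RPKM per small subunit gene (y axis) in every library, by position in the cycle (x axis), for the fast (left) and slow condition (right). Filled circles are cycle 1, open squares cycle 2 and the line their mean; all points lie between 0.862 and 0.969, below the dotted line at 1.

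No test was made between the subunits, since genes are not replicates of a subunit, and their medians are given side by side with those of all tested genes. The range of a fitted cosine had a median of 1.89 on the log2 scale for the large and 1.88 for the small subunit in the fast condition, against 0.84 for all tested genes. In the slow condition it was 1.43 and 1.45, against 0.54. The fold between the highest and lowest position was 3.50 and 3.48 in the fast, against 2.196, and 4.35 and 4.46 in the slow condition, against 2.23. Mean levels had medians of 122.7 and 128.7 RPKM in fast and of 110.5 and 109.7 RPKM in the slow condition, where all tested genes had 52.1 and 50.8 RPKM. The spread inside each subunit was far wider than the gap between the subunits. Fast mean levels ran from 75.2 (MRPL20) to 244 RPKM (MRPL38) in the large and from 44.3 (RSM22) to 312 RPKM (RSM18) in the small subunit.

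Genes resembled each other whichever subunit they belonged to. The correlation of each gene with the mean of the other members was taken over the 44 libraries, centred within each condition, and 58 of 65 genes (34 large, 24 small) had values above 0.95. Only 16 of 37 large and 9 of 28 small subunit genes correlated better with their own subunit than with the other. These points share libraries and depth, and the correlations describe this set of libraries.

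Within the large subunit, MRPL4, MRPL49 and MRPL7 had the widest fast cosine ranges. MRPL4 (YLR439W, chromosome XII, 1014491 to 1015450), another protein at the mouth of the exit tunnel, ran from 73.9 over a median of 119 to 386.5 RPKM in the fast libraries. Its mean of 2 cycles was 362 ± 35.1 RPKM at its highest position and 79.0 ± 7.25 at its lowest (SD of 2 cycles). MRPL7 (YDR237W, chromosome IV, 936615 to 937493), a protein of the central protuberance, ran from 65.2 over 93.8 to 280 RPKM. Both were high in the libraries around positions 9 to 2 and low in the rest. Their cosine ranges were 2.30 ± 0.21 and 2.26 ± 0.18 on the log2 scale (SE), and that of MRPL49, whose family is shared with bacterial ribosomes, was 2.28 ± 0.18.

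In the slow condition MRPL7, MRPL3 and MRPL15 led the large subunit. MRPL7 ran from 47.0 over 70.0 to 402 RPKM in the slow libraries. Its highest position averaged 378 ± 35.0 and its lowest 51.3 ± 6.15 RPKM (SD of 2 cycles), a 7.25-fold course that was the widest of all 65. MRPL3 ran from 41.7 over 60.3 to 299 RPKM and MRPL15 from 42.3 over 64.1 to 300. MRPL10, whose family is shared with bacterial ribosomes, ran from 59.1 over 81.2 to 408 RPKM in the slow and from 79.4 over 111 to 284 RPKM in the fast libraries. Its maximum was thus higher in the slow cycle, and its median lower. The members as a set went the same way, with a median highest value of 313 RPKM in slow and 238 in fast libraries. The median of their medians was 81.5 RPKM in slow and 93.8 in fast libraries.

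The narrowest large subunit genes were MRP20, MRPL44 and MRPL28 in fast and MRPL33, MRP20 and MRPL44 in slow cycling. MRPL44, a protein with no bacterial counterpart, ran from 46.9 over 62.5 to 155.8 RPKM in fast and from 47.3 over 58.5 to 153 RPKM in the slow libraries. Its cosine range was 1.31 ± 0.17 in fast and 0.93 ± 0.18 in the slow condition (log2, SE). MRPL28 had 1.41 ± 0.18 and 1.03 ± 0.17. All passed the rank test for cycling except MRP20 in the slow condition.

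The most abundant large subunit genes did not have the widest ranges. MRPL38, a protein of the face towards the small subunit, had the highest mean of the large subunit, from 113 over 192 to 462 RPKM in the fast libraries, followed by MRPL51 and MRPL36. MRPL20, MRPL44 and MRPL11 had the lowest, with MRPL20 from 32.8 over 51.0 to 152 RPKM. MRPL20 nonetheless had a fast cosine range of 2.13 ± 0.16 (log2, SE), above the 1.74 ± 0.18 of MRPL38. MRPL11, at the base of the stalk that binds translation factors, had 1.95 ± 0.16.

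In the small subunit RSM26, MRPS9 and MRPS35 had the widest fast ranges, and MRPS9, RSM26 and MRP13 the widest slow ranges. RSM26 (YJR101W, chromosome X, 618234 to 619034) ran from 25.2 over 51.9 to 134 RPKM in fast and from 25.8 over 40.8 to 210 RPKM in the slow libraries. Its highest fast position averaged 130 ± 4.52 and its lowest 27.8 ± 3.63 RPKM (SD of 2 cycles), the widest fast course of the 65 at 4.57-fold. MRPS9 (YBR146W, chromosome II, 535260 to 536096), a protein of the head of the subunit whose tail reaches the bound transfer RNA, ran from 125 over 191 to 535 RPKM in fast and from 98.9 over 142 to 748 RPKM in the slow libraries. The 748 RPKM of MRPS9 in the first slow library was the highest value of any member. MRPS35 and MRP13, which have no bacterial counterparts, had fast cosine ranges of 2.17 ± 0.15 and 2.06 ± 0.17 (log2, SE).

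The most abundant small subunit genes were RSM18, MRPS18 and MRPS9, the first 2 of them proteins of the platform. RSM18 (chromosome V, 253971 to 254387) ran from 166.5 over 251 to 524 RPKM in fast and from 201 over 251 to 595 RPKM in slow libraries, the highest median of all members with one of the smaller slow ranges, 0.99 ± 0.16 on the log2 scale (SE). MRPS18 ran from 139.9 over 205 to 545 RPKM in the fast libraries. MRPS5, at the entrance of the message channel, was among the 3 lowest, from 48.4 over 63.5 to 147 RPKM.

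RSM22 (YKL155C, chromosome XI, 159456 to 161342) was the least abundant member and ran early. In the fast libraries it went from 26.5 over a median of 35.9 to 86.3 RPKM, with 3 positions above the middle of its course in place of the usual 4. It was at 66.5 and 73.2 RPKM at fast position 9 in the 2 cycles and at 36.9 and 43.7 at position 2, where most members were still near their maximum. In the slow libraries it went from 24.9 over 32.3 to 77.2 RPKM. Its correlation with the mean of the large subunit was 0.82 over the 44 libraries, where the median member had 0.98. It is also the member with no match to TGTANATA after its stop codon. Whether the course and the missing letters are related was not tested.

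MRPS12, RSM7, MRPS16 and MRPL23 ran late. They were highest at fast position 2, as 12 members were, and, with MRPL31 and MRPS18, were lowest at fast position 8, where the median member had begun to climb. Of these, MRPS12 and MRPL23 were picked out after their values were seen. MRPS12 (YNR036C, chromosome XIV, 694361 to 694822), a protein of the decoding centre, was at 354 and 446 RPKM at fast position 2 in the 2 cycles and at 90.9 and 131 at position 8. In the slow condition it was at 387 and 296 RPKM at position 1 and at 335 and 343 at position 2, a mean change of 0.0004 ± 0.13 on the log2 scale (SE, limma adjusted p of 0.998). It then fell by 0.73 ± 0.13 from position 2 to 3, with a limma adjusted p of 0.0011.

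RSM7 (YJR113C, chromosome X, 638232 to 638975), a protein of the head by the path of the message, kept its slow maximum for 2 positions as well. It was at 161 and 271 RPKM at position 1 and at 216.4 and 257 at position 2, then at 82.1 and 134 at position 3. The drop from 2 to 3 was -1.16 ± 0.23 on the log2 scale (SE), with a limma adjusted p of 0.0023. MRPL23, whose family is shared with bacterial ribosomes, and MRPS16, a protein of the body of the small subunit, were lowest at slow position 12, the position from which the members rise, as was MRPS12. MRPL23 averaged 84.9 ± 3.38 RPKM there and 373 ± 83.6 at position 1 (SD of 2 cycles).

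**Figure D4:**
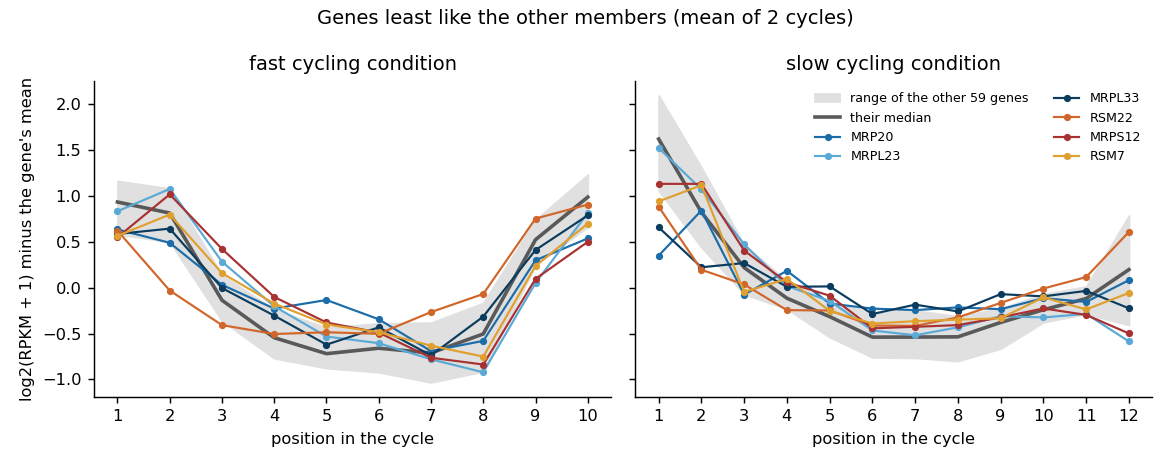
Mean over 2 cycles of log2(RPKM + 1) minus the gene's own mean (y axis) by position (x axis) in the fast (left) and slow condition (right), for MRP20, MRPL23, MRPL33 (large subunit, blue), RSM22, MRPS12 and RSM7 (small subunit, red to yellow). The grey band is the range and the dark line the median of the other 59 genes; RSM22 leaves the high phase by fast position 2, MRPS12 and RSM7 hold theirs to position 2, and MRP20 and MRPL33 stay flatter in the slow cycle.

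MRP20 (YDR405W, chromosome IV, 1277646 to 1278437) repeated its slow course least well. Its slow libraries ran from 107.9 over 142.7 to 313 RPKM, but position 1 gave 129.5 RPKM in the first cycle and 313 in the second. Position 2 was high in both, at 262 and 307 RPKM. The correlation between its 2 slow cycles was 0.39 over 12 positions, the 1 member below 0.8. In the fast condition it ran from 88.6 over 155 to 279 RPKM and its cycles correlated at 0.85. It was also the member least like the mean of the large subunit, at 0.78 over the 44 libraries.

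MRPL33 (YMR286W, chromosome XIII, 841942 to 842202), whose family is shared with bacterial ribosomes, was the flattest member in the slow condition. Its slow libraries ran from 95.6 over 122 to 220 RPKM, a 1.92-fold course and the 1 course below 2-fold among the members. Its fast libraries ran from 59.98 over 107 to 200.4 RPKM, a 2.88-fold course. The slow minimum lay above the fast one, while the maxima were close. It was also the 1 member whose level was lower in the fast than in the slow condition, at -0.16 ± 0.13 on the log2 scale (SE), which did not pass limma (adjusted p of 0.362).

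Between the conditions the range moved in a direction that depended on the measure. By the cosine, MRPL33 and MRPL1 had a larger range in the fast condition (z test, adjusted p under 0.05), where 32.6% of all tested genes did, and no member had a larger one in the slow, where 2.87% did. The count at an unadjusted p under 0.05 was 12 larger in fast and 0 larger in slow. With ERCC scaling it was 1 larger in fast and 0 larger in slow, and none passed after adjustment. Counts over all tested genes for these settings are not given here. The difference was 0.91 ± 0.21 for MRPL33 (adjusted p of 0.000314) and 0.69 ± 0.29 for MRPL1 (0.0487), a protein of the stalk by which transfer RNA leaves (log2, SE). All 65 differences were above 0, as they were for 4678 of 5820 tested genes. The median difference was 0.39 for the members, against 0.33 for all tested genes. By the highest over the lowest position the order was the other way, with 59 of 65 members larger in the slow condition. By that measure 2797 of 5820 tested genes were larger in the slow condition. The median difference was -0.41 for the members, against 0.02 for all tested genes. The slow course is high at 2 of 12 positions, and a cosine took a median of 66.2% of its variance, against 87.5% in the fast condition.

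**Figure D5:**
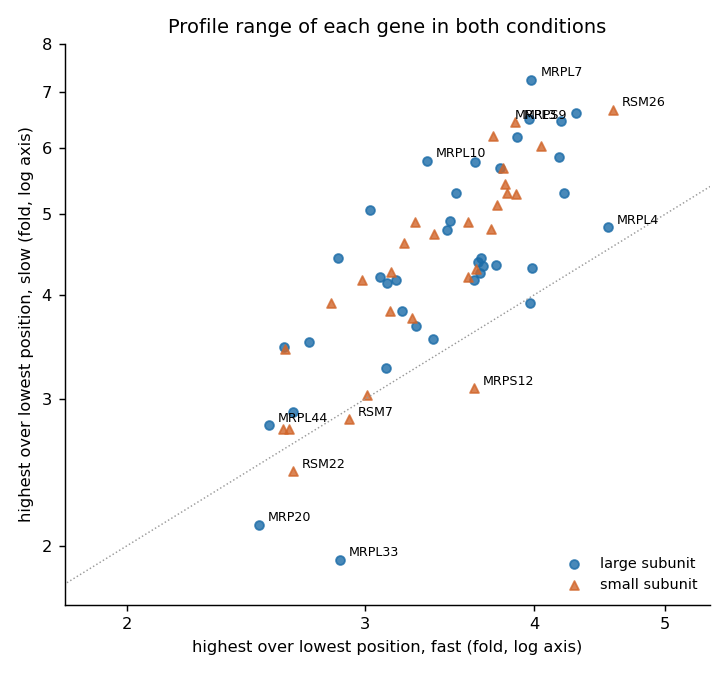
Fold between the highest and the lowest position of the 2-cycle mean in the fast (x axis) and slow condition (y axis), both on log axes, for each large subunit (circles) and small subunit gene (triangles). Genes above the dotted line of equality had the larger fold in the slow condition, which were 59 of 65; MRPL7 is highest in the slow condition, and MRPL33 and MRP20 lie lowest.

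In the deposited scaling few members passed a test of their level over whole cycles. The test had no term for position, so a gene's own cycling counted in its error (median SE of 0.20 for the members). A count below the share of all tested genes therefore does not show that the members' levels differed less. MRPL4 and MRP4 were higher in the fast condition (limma, adjusted p under 0.05), where 17.9% of all tested genes were, and no member was lower, where 20.4% were. At an unadjusted p under 0.05 it was 6 members higher and 0 lower. With ERCC scaling limma called 8 members higher after adjustment and 32 at an unadjusted p under 0.05, again with 0 lower. Counts over all tested genes at an unadjusted p or in that scaling are not given here. In the first or the second cycle alone neither MRPL4 nor MRP4 passed. MRPL4 differed by 0.72 ± 0.24 on the log2 scale (SE, adjusted p of 0.0154) and MRP4, a small subunit protein of a family shared with bacterial ribosomes, by 0.54 ± 0.22 (0.0429). No member was past 2-fold as well, where 1.87% of all tested genes were higher and 2.35% lower by that measure. Of the 65 members 64 were above 0, as were 2917 of 5820 tested genes. Medians were 0.23 for the large and 0.25 for the small subunit, against 0.00 for all tested genes. ERCC scaling moved the median of all tested genes by 0.21 and that of the members to 0.46. The counts of 8 and 32 thus come from a scaling that shifted all tested genes upwards. The members' median lay 0.24 above that of all tested genes in the deposited scaling and 0.25 above it with ERCC scaling. The highest MRPL4 values were alike, at 386.5 RPKM in a fast and 384.8 in a slow library, while its fast median of 119 RPKM stood above the slow median of 74.1. MRP4 had fast and slow medians of 128 and 90.4 RPKM.

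Other genes of mitochondrial translation, taken from lists of standard names, are counted here beside the 74.3% of all tested genes that cycled in fast and the 55.1% in slow cycling. All 8 further large subunit genes and all 5 tested further small subunit genes cycled in both conditions. In the fast condition all 8 translation factors, all 13 mitochondrial aminoacyl-tRNA synthetases and all 6 genes of the mitochondrial RNA polymerase and RNA turnover cycled too, and in the slow condition all of these did again. Of 7 ribosome assembly and RNA modification genes 7 cycled in fast and 6 in slow cycling, and of 13 activators of single mitochondrial messages 10 (76.9%) cycled in each, in fast cycling a share near that of all tested genes. Median slow folds were 4.92 for the synthetases, 4.41 for the translation factors and 1.98 for the activators, against 4.35 for the members and 2.23 for all tested genes.

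The enzyme complexes that mitochondrial translation serves are given beside them. Of 35 nuclear genes of the respiratory chain and the ATP synthase 26 (74.3%) cycled in each condition, which in fast cycling is the share of all tested genes. Their median folds were 1.97 (fast) and 1.95 (slow), against 2.196 and 2.23 for all tested genes. They were highest at fast position 9 in 27 cases and at slow position 3 in 18, against 602 and 378 of 5820 tested genes. Their median mean level was 731 RPKM in fast and 473 in slow cycling, above the members in both. COX4, a subunit of cytochrome oxidase, did not pass the rank test in either condition (adjusted p of 0.142 and 0.0713). The TGTANATA letters were in 22.9% of these 35 genes and 8.70% of the cytosolic ribosomal protein genes, against 16.5% of all tested genes. They were in all 13 synthetases and 7 of 8 translation factors. RNA polymerase and turnover genes had them in 5 of 6 cases, and assembly and modification genes in 5 of 7. Of the activators of single messages, whose median slow fold was 1.98, 9 of 13 had them. All 5 genes of membrane insertion and ribosome tethering had them, and 1 of 5 genes of Puf3 and the Hap complex did. CCAAT was in 85.7% of the 35 promoters, against 44.2% of all tested genes.

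The 10 genes outside the members whose course was most like their mean, by correlation over the 44 libraries centred within each condition, were RML2, FYV4, IMG2, MRF1, CYT2, MSK1, BCS1, CQD2, CBP3 and OMS1. Their correlations lay between 0.987 and 0.995. RML2 and IMG2 encode large and FYV4 a small subunit protein, MRF1 the release factor that ends mitochondrial translation, and MSK1 the lysyl-tRNA synthetase. CYT2 (the lyase that attaches heme to cytochrome c1), BCS1 and CBP3 act in building the cytochrome bc1 complex. Among the 100 most alike of 5755 non-members were all 8 further large and 4 of 5 further small subunit genes. So were 12 of 13 synthetases and 6 of 8 translation factors. Other mitochondrial lists had fewer: 3 of 6 RNA polymerase and turnover genes, 3 of 13 activators and 1 of 7 assembly and modification genes. Membrane insertion and ribosome tethering had 1 of 5, and Puf3 and the Hap complex 0 of 5. None of the 35 respiratory chain and none of the 138 cytosolic ribosomal protein genes was among the 100.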

How the data were processed

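Messenger RNA was sequenced in 20 fast and 24 slow libraries after poly(A) selection. The authors deposited 1 table of RPKM values. Per the file headers, these are HOMER counts of sense-strand reads over gene bodies, with genes from SGD on sacCer3 and 92 added ERCC controls. The submitters' processing notes also name FastQC 0.10.1 and TopHat2 2.0.10. Treatment of multiply mapping reads is unknown here. RNA was extracted in 4 groups with samples assigned at random, per the labels' protocols, but which sample went to which group is not known from these sources. Low RPKM values were whole multiples of 1 read within 0.1 in 100.0% of values checked, which gave the depth.

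A gene was tested if it averaged 1 RPKM or more. Cycling used an own implementation of the JTK_Cycle rank test (periods of 9 to 11 intervals in fast, 11 to 13 in slow). Steps and levels used limma 3.58.1 in R 4.3.3 on log2(RPKM + 1), which understates changes of low genes. Ranges came from a cosine at 10 or 12 intervals and were compared with a z test. All p-values were adjusted by Benjamini-Hochberg over 5820 genes. The code was tested on simulated data. Scripts ran in Python 3.11.15 (numpy 2.4.6, scipy 1.17.1; tables in pandas 2.3.3, plots in matplotlib 3.10.9).

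The members and gene lists were chosen with earlier results of these data known. Named genes are, per subunit, the 3 with the widest and narrowest cosine range in each condition, the 3 highest and lowest in mean RPKM, up to 6 highest more than 2 positions from the commonest place (none qualified), those past a test between conditions, MRPL10, and the 10 non-members most like the members. MRPS12 and MRPL23 were added after their values were seen. The highest correlation between 2 libraries was 0.995, and 0 pairs held identical values. Table columns not tied to a sample numbered 0.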

Additional observations from a re-analysis of the deposited data

Results flagged for a closer look

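The cosine range of MRPL33 was larger in the fast than in the slow condition by 0.9126 on the log2 scale, and that of MRPL1 by 0.689, in a z test of the difference between the conditions adjusted over all tested genes. The cosine differences stayed above 0 under other scalings and another pseudocount. A filter on low values cannot change these differences, only their adjusted p. With ERCC scaling neither passed the z test (adjusted p of 0.252 for MRPL33 and 0.627 for MRPL1). By the highest over the lowest position the difference was 0.58 for MRPL33 but -0.22 for MRPL1, the opposite sign.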

How the results depend on the processing

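Of the alternatives for the counts and medians that answer a comparison, 99 stayed within 1.5 times the count or within the spread between cycles, 21 moved and 1 reversed. Of those for single genes and single subunits 135 stayed, 13 moved, 8 lost and 1 gained a call. With ERCC scaling the fast rise from 8 to 9 (64) went to 0, where 0 of all tested genes rose. The fast fall from 2 to 3 (51) went to 0, where 0 of all tested genes fell. The slow fall from 2 to 3 (44) went to 6, where 51 of all tested genes fell. In that scaling larger ranges in fast (2) went to 0, higher levels in fast (2) to 8, and the median level difference of 0.2407 to 0.4563. The median level difference of all tested genes went from 0.0013 to 0.2096. At an adjusted p under 0.01 the 3 step counts were 42, 19 and 21. Size factors gave 38 of 59 for the slow fall from 1 to 2, 4 larger ranges, and 0.0609 in place of 0.0082 for the large minus small difference of fast ranges. Without a filter on low values 1 larger range was left, since MRPL1 reached an adjusted p of 0.0541. The profile range reversed the median range difference from 0.3889 to -0.4052. Adding the other mitochondrial ribosomal protein genes moved the large minus small difference from -0.0995 to -0.0382 for fast levels, from -0.0205 to -0.0596 for slow ranges and from -0.0219 to -0.1148 for slow levels, which mean RPKM in place of medians put at -0.0896.

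Higher levels in fast were 0 in the first cycle alone, 0 in the second and 0 at 2-fold. In single cycles MRPL4 had adjusted p of 0.16 and 0.131 and MRP4 of 0.249 and 0.207. Same-numbered time points of the conditions did not pair the samples: their deviations correlated at -0.696 to 0.702 (median 0.0363), 10 of 20 above 0.1, and 0 of 20 correlated best with their own number. With that number as a replicate block, 1 member was higher in fast, and MRP4 had an adjusted p of 0.0622. A block on the cycle number gave 64 rising and 56 falling members in the fast steps and 63, 60 and 52 in the slow ones, and 65 in both conditions in the limma F test over positions. The cause of these changes was not tested.

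The libraries number 44 from 2 cultures, so differences between conditions rest on 1 culture each, and no fit could hold the extraction group. The nearest sampling was 13 min in fast and 36 min in slow, which limits how finely peaks can be placed.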
